A study of Danio rerio with 2 samples.

Results

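The 14 sense codons that end in A and are matched to an anticodon with U at its first position, position 34 of the tRNA, were taken from a table of ribosome dwell times in zebrafish (Danio rerio) embryos. They are 14 of 61 codons with a dwell time at both stages, each has an anticodon of its own, and the rule that defines them uses the letters of the anticodon and no measured value. The other codons are matched to anticodons starting with C (15 codons), G (16 codons) or A (16 codons), called C34, G34 and A34 here. Embryos were wild type, of the TLAB strain, grown without perturbation and collected at the bud stage (end of gastrulation, 10 hours post fertilisation, hpf) or at the sphere stage (blastula, 4 hpf). Each stage was represented by 1 ribosome profiling library from a pool of 200 embryos. The lysis buffer held cycloheximide at 100 µg/ml and tigecycline at 100 µg/ml, both of which stop ribosomes from moving on. Whole embryos were used, so all values are averages over cell types, and codon values cannot be set against cell type markers.

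Dwell time is the relative time a ribosome spends with a codon in its A site, the place where the incoming tRNA is matched to it. It is a ratio around 1 within a library, and a higher value means slower decoding. The table also lists the tRNA proportion, the share of tRNA reads assigned to an anticodon, as a value of the authors for each stage from separate libraries. No standard errors or read counts accompany these values, so the depth behind each codon is unknown. Per the paper, clearly fewer footprint reads aligned to the reference transcripts in sphere than in bud. Depth and stage therefore cannot be told apart in comparisons between the stages. With 1 ribosome profiling library per stage, no difference in dwell time between codons or stages has a replicate check. The paper averaged tRNA proportions over replicate libraries of each stage, but only 1 value per anticodon and stage was available here. It also tested changes of anticodon levels between stages, which was not repeated. No test was made here.

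The U at position 34 pairs with the A at the third position of the codon, and depending on its modification it can also read G. In yeast and mammals this U is usually modified, but not in every tRNA and not always in the same way. The Elongator complex starts the modification in many of these tRNAs. In those for Lys, Gln and Glu a thiol group is added as well. The modifications stabilise pairing with A, and their loss slows decoding of some A-ending codons in yeast. None of them was measured here. Inosine, made from A at position 34, can also pair with A, so some of these codons have a second possible reader.

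The members are shown with the third codon base and position 34 of the anticodon in capitals, because that pair defines them, and all sequences run 5′ to 3′. Members of two-codon boxes share their first 2 bases with codons of another amino acid. In four-codon boxes all codons with the same first 2 bases encode a single amino acid.
Two-codon boxes:
Lys-AAA: codon aaA, anticodon Uuu
Arg-AGA: codon agA, anticodon Ucu
Gln-CAA: codon caA, anticodon Uug
Glu-GAA: codon gaA, anticodon Uuc
Leu-UUA: codon uuA, anticodon Uaa
Three-codon box:
Ile-AUA: codon auA, anticodon Uau
Four-codon boxes:
Thr-ACA: codon acA, anticodon Ugu
Pro-CCA: codon ccA, anticodon Ugg
Arg-CGA: codon cgA, anticodon Ucg
Leu-CUA: codon cuA, anticodon Uag
Ala-GCA: codon gcA, anticodon Ugc
Gly-GGA: codon ggA, anticodon Ucc
Val-GUA: codon guA, anticodon Uac
Ser-UCA: codon ucA, anticodon Uga

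Dwell times of these codons spanned a 1.46-fold range in bud and a 1.43-fold range in sphere, and a group of 5 slow codons stood apart from the other 9 at both stages. Leu-CUA was the slowest, at 1.35 in bud and 1.33 in sphere, and ranked 1 in bud and 3 in sphere among all 61 codons. Arg-CGA followed with 1.21 in bud and 1.31 in sphere. Ile-AUA had 1.21 in bud and 1.23 in sphere. Both lay among the 10 slowest codons at each stage. Leu-UUA had 1.17 in bud and 1.17 in sphere, and Pro-CCA also had 1.17 in bud and 1.16 in sphere. Below Pro-CCA the next member in bud was Ala-GCA, lower by 0.129, and in sphere Thr-ACA, lower by 0.141. Only the step below Leu-CUA in bud, 0.140, was of that size among the other steps.

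The remaining 9 codons lay between 0.925 and 1.04 in bud and between 0.931 and 1.02 in sphere. Val-GUA had a dwell time of 1.02 in bud and 1.01 in sphere. Gln-CAA had 1.01 in bud and 1.01 in sphere. Thr-ACA had 1.01 in bud and 1.02 in sphere. These 3 codons sat just above 1. Glu-GAA had 0.996 in bud and 0.987 in sphere. Ser-UCA had 0.980 in bud and 0.975 in sphere. Arg-AGA had 0.954 in bud and 0.981 in sphere. These lay just below 1 at both stages. Lys-AAA had 0.933 in bud and 0.989 in sphere. Gly-GGA was the fastest member at both stages, with 0.925 in bud and 0.931 in sphere. Ala-GCA changed place most among the members, with 1.04 in bud and 0.941 in sphere. The order was largely shared between the stages, and 9 of 14 members kept their rank (Spearman's rho = 0.833; Pearson's r = 0.947 over the 14 codons of a library per stage). Of the 13 steps between neighbours, 6 in bud and 7 in sphere were smaller than 0.0131, the median difference of a member between the stages, and no replicate shows whether such neighbours differ.

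Members of four-codon boxes spanned a wider range than those of two-codon boxes. In four-codon boxes, the median dwell time of the 8 members was 1.03 in bud (range 0.925 to 1.35) and 1.02 in sphere (range 0.931 to 1.33). The 5 members of two-codon boxes had a median of 0.996 in bud (range 0.933 to 1.17) and 0.989 in sphere (range 0.981 to 1.17). The ranges overlapped, and median log2 dwell times differed by 0.052 in bud and 0.042 in sphere, four-codon minus two-codon. Leu and Arg have a box of each kind, and in both amino acids the four-codon member was slower. Leu-CUA exceeded Leu-UUA, and Arg-CGA exceeded Arg-AGA, the fastest of all 6 Arg codons at both stages. Without the Leu and Arg boxes the difference was 0.024 in bud and 0.0070 in sphere.

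The U34 codons were next compared with the other anticodon classes. Their median dwell time was 1.02 in bud and 1.01 in sphere, against 0.981 in bud and 0.999 in sphere for the 47 other codons. On the log2 scale the medians differed, U34 minus the rest, by 0.053 in bud and 0.015 in sphere. The means differed by 0.077 in bud and 0.075 in sphere, so the gap between the stages was not seen with them. Among the 10 slowest codons, 4 in bud and 5 in sphere were U34 codons, and all others were C34 codons (6 in bud and 5 in sphere). No G34 or A34 codon was among them. Among the 20 slowest, 5 in bud and 6 in sphere were U34 codons, against 9 C34 and 5 A34 codons at each stage, with 1 G34 codon in bud. C34 codons had a higher median than U34 codons, 1.07 in bud and 1.08 in sphere. G34 codons had medians of 0.961 in bud and 0.971 in sphere, and A34 codons 0.989 in bud and 0.983 in sphere. At the fast end, 3 U34 codons in bud and 2 in sphere were among the 20 fastest. The other classes had 5 C34, 6 G34 and 6 A34 codons there in bud, and 4 C34, 6 G34 and 8 A34 in sphere. U34 codons were 14 of all 61. Their count was above that share among the 10 slowest, near it among the 20 slowest and below it among the 20 fastest. Set against the mean log2 dwell time of their own amino acid, U34 codons had a median deviation of 0.020 in bud and 0.029 in sphere. The other classes together had -0.033 in bud and -0.031 in sphere. C34 codons alone were close to U34, with 0.020 in bud and 0.021 in sphere. G34 codons had -0.0063 in bud and -0.0057 in sphere, and A34 codons -0.078 in bud and -0.085 in sphere.

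Within its box, the A-ending codon was often second to the G-ending one. In the 8 four-codon boxes it was the slowest codon in Leu and Val, and the second slowest in 5 boxes in bud and 4 in sphere. Among the members, Ile-AUA deviated most from the mean of its amino acid, by 0.32 in bud and 0.32 in sphere on the log2 scale. Its synonymous codons AUU and AUC, read by an A34 anticodon, had dwell times of 0.869 and 0.858 in bud and of 0.870 and 0.902 in sphere. Val-GUA deviated by 0.16 in bud and 0.15 in sphere although its own dwell time was near 1, because the other Val codons lay between 0.831 and 0.923 in bud and between 0.852 and 0.939 in sphere. Conversely, Pro-CCA was slow in absolute terms but deviated by only 0.015 in bud and 0.022 in sphere, as Pro codons were slow in general. The place within the box changed between the stages for 3 members. Ala-GCA was the second slowest Ala codon in bud but the fastest in sphere. Gly-GGA ranked 3 of 4 in bud and was the fastest in sphere, and Leu-UUA was faster than Leu-UUG in bud and slower in sphere, with a sphere difference of 1.17 against 1.16.

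A direct comparison is given by the G-ending codon of the same box, which encodes the same amino acid and is matched to a C34 anticodon. It exists for 13 members, since the G-ending codon beside Ile-AUA encodes Met. The A-ending codon was faster in 9 pairs and slower in 4 in bud, and faster in 8 and slower in 5 in sphere. The median log2 ratio, A-ending over G-ending, was -0.065 in bud and -0.052 in sphere, with pairs spread from -0.44 to 0.34 in bud and from -0.47 to 0.38 in sphere. The widest gap was in Ser, where UCA had 0.980 in bud and 0.975 in sphere, against 1.33 in bud and 1.35 in sphere for UCG. Thr-ACA stood at 1.01 in bud and 1.02 in sphere, against 1.23 in bud and 1.28 in sphere for ACG. The opposite extreme was Leu, where CUA had 1.35 in bud and 1.33 in sphere, against 1.07 in bud and 1.02 in sphere for CUG.

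These ratios differed between kinds of box. In four-codon boxes the A-ending codon was faster in 6 of 8 pairs at both stages, with a median log2 ratio of -0.16 in bud and -0.17 in sphere. Ser, Thr, Ala, Gly, Pro and Arg made up the 6, and Leu and Val were the exceptions. The G-ending partners in Ser, Pro, Ala and Thr end in CG and ranked 2, 3, 5 and 6 of 61 by slowness in bud. Their ranks in sphere were 2, 6, 11 and 5. In the other four-codon boxes the log2 ratio was 0.34 for Leu, 0.14 for Val, -0.038 for Arg and -0.17 for Gly in bud. In sphere it was 0.38, 0.11, -0.052 and -0.22. The four-codon median thus leaned on the boxes with a slow CG-ending codon. In two-codon boxes the median was near 0, at -0.0069 in bud and 0.0088 in sphere, and the A-ending codon was faster in 3 of 5 pairs in bud and 2 of 5 in sphere. Lys-AAA and Lys-AAG were close at both stages, with 0.933 and 0.938 in bud and 0.989 and 0.996 in sphere. Among the 3 amino acids whose U34 tRNA is thiolated in yeast and mammals, Gln and Glu had the A-ending codon slower at both stages. Gln-CAA was at 1.01 in bud and 1.01 in sphere, against 0.905 in bud and 0.926 in sphere for CAG. Glu-GAA was at 0.996 in bud and 0.987 in sphere, against 0.892 in bud and 0.949 in sphere for GAG. The U34 share of the pair's tRNA was 37.0% in bud and 40.9% in sphere for Gln, and 9.52% and 13.1% for Glu. For Lys it was 73.0% in bud and 77.4% in sphere. Any part of thiolation was not tested.

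The supply of U34 tRNAs was unequal. The authors' proportions of the 14 anticodons summed to 22.8% of tRNA reads in bud and 23.0% in sphere, against 27.0% in bud and 26.9% in sphere for the 15 C34 anticodons. A single anticodon, UUU of Lys, held 7.42% in bud and 6.34% in sphere, the highest proportion of all 45 anticodons at both stages. It made up 32.6% of the U34 total in bud and 27.5% in sphere. Second among the U34 anticodons was UCC of Gly, with 3.45% in bud and 3.49% in sphere. At the other end, UAG, which reads Leu-CUA, held 0.308% in bud and 0.370% in sphere. UGA, which reads Ser-UCA, held 0.582% in bud and 0.344% in sphere. The median over the U34 anticodons was 1.17% in bud and 1.00% in sphere, against 2.35% in bud and 2.33% in sphere over the 31 other anticodons. The C34 anticodons alone were closer to U34, with a median of 1.35% in bud and 1.68% in sphere. Proportions below 1% were found for 6 U34 anticodons in bud and 7 in sphere and for 5 C34 anticodons at each stage, whereas none of the G34 or A34 anticodons lay below 1%.

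Within its own box the U34 anticodon held very different shares of the tRNA reads. It had 10.1% of the box in bud and 9.19% in sphere for Leu-CUA, and 9.52% in bud and 13.1% in sphere for Glu-GAA. For Gly-GGA, whose box has no A34 anticodon, the share was 54.0% in bud and 54.2% in sphere, and for Lys-AAA it was 73.0% in bud and 77.4% in sphere. In the 8 boxes that hold an A34 anticodon (Thr, Ile, Pro, Arg-CGN, Leu-CUN, Ala, Val and Ser-UCN), the A34 proportion exceeded that of U34 by 1.38 to 5.41-fold in bud and by 1.15 to 7.95-fold in sphere. The largest excess in sphere was in Ser, where the A34 anticodon AGA had 2.29% in bud and 2.74% in sphere.

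Slow decoding went with low tRNA proportion for some members but not for others. Dwell times of the 14 codons were set against inverse tRNA proportions measured at their own stage (Pearson's r = 0.689 and Spearman's rho = 0.543 in bud, r = 0.388 and rho = 0.367 in sphere). All points of a stage share a library and a tRNA set, and the r is a description of these codons. Over the 47 other codons r was 0.610 in bud and 0.579 in sphere, with rho at 0.241 in bud and 0.206 in sphere. The r of the 15 C34 codons was 0.656 in bud and 0.582 in sphere. In the G34 and A34 classes, where proportions span a narrower range, r lay between -0.376 and 0.164.

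Single codons weighed heavily in these values. Without Leu-CUA, r over the members was 0.447 in bud and 0.141 in sphere. Without Ser-UCA it was 0.755 in bud and 0.659 in sphere. The difference between the stages, bud minus sphere, was 0.301 with all members and 0.0962 without Ser-UCA. Leaving out any other member kept it between 0.290 and 0.326. Exchanging the tRNA sets gave r = 0.487 for bud dwell times with sphere proportions and 0.536 for sphere dwell times with bud proportions. With the A34 proportion of the box added to the supply, r over the members was 0.119 in bud and 0.0636 in sphere. With the U34 proportion alone, r in the 8 four-codon boxes was 0.645 in bud and 0.270 in sphere. Leaving out 1 codon in turn gave -0.051 to 0.784 in bud and -0.135 to 0.634 in sphere, lowest without Leu-CUA. In the 5 two-codon boxes r was 0.833 in bud and 0.722 in sphere. There the omissions gave 0.500 to 0.953 in bud and -0.154 to 0.979 in sphere, lowest without Leu-UUA.

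Codons with similarly rare tRNAs illustrate the scatter. In sphere, Leu-CUA and Ser-UCA had proportions of 0.370% and 0.344% but dwell times of 1.33 and 0.975. Glu-GAA and Ile-AUA had proportions of 0.616% and 0.624% in bud and dwell times of 0.996 and 1.21, and in sphere proportions of 0.734% and 0.720% with dwell times of 0.987 and 1.23. Arg-CGA was slow, at 1.21 in bud and 1.31 in sphere, with a proportion of 1.36% in bud and 1.02% in sphere. The U34 codons with a tRNA below 1% had a median dwell time of 1.11 in bud (6 codons, 4 above 1) and 1.02 in sphere (7 codons, 4 above 1). The C34 codons with such rare tRNAs had a median of 1.24 in bud and 1.26 in sphere, and all 5 were above 1 at both stages. For the U34 codons with a tRNA of at least 1%, the median was 1.01 in bud and 1.01 in sphere.

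A straight line of dwell time on inverse tRNA proportion was fitted to the 47 codons of the other classes, and the members were placed against it. This comparison was chosen after the values were seen. Members fell on both sides, 6 above and 8 below in bud and 7 above and 7 below in sphere. Their median distance was -0.0084 in bud and -0.0011 in sphere. The fitted codons split similarly, 22 above and 25 below in bud and 21 above and 26 below in sphere. Arg-CGA lay farthest above, by 0.194 in bud and 0.274 in sphere, followed in bud by Pro-CCA at 0.147 and Leu-CUA at 0.125 and in sphere by Leu-CUA at 0.189 and Ile-AUA at 0.169. Ser-UCA lay farthest below, by -0.120 in bud and -0.181 in sphere. The residual SD of the fitted codons was 0.101 in bud and 0.0979 in sphere. Their own distances ran from -0.172 to 0.260 in bud and from -0.160 to 0.280 in sphere.

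In the 13 pairs with a G-ending codon, the codon with the higher tRNA proportion was usually the faster one. This held in 11 pairs in bud and 10 in sphere. The counts include near ties. Dwell times of Lys-AAA and Lys-AAG were 0.933 and 0.938 in bud and 0.989 and 0.996 in sphere. The Val anticodons UAC and CAC held 1.30% and 1.35% in bud and 1.53% and 1.56% in sphere. The exceptions at both stages were Thr and Ala, where the A-ending codon was faster although its anticodon was the rarer one. For Ala, UGC held 0.799% in bud and 0.983% in sphere, against 3.09% in bud and 3.42% in sphere for CGC, while GCG was the slower codon with 1.24 in bud and 1.16 in sphere. In sphere Leu-UUA was the third exception. The log2 dwell ratio had r = -0.462 in bud and -0.340 in sphere with the log2 tRNA ratio of the pair over 13 pairs. The rho was -0.401 in bud and -0.396 in sphere. In the 8 four-codon boxes r was -0.370 in bud and -0.356 in sphere, with rho at -0.119 in bud and -0.262 in sphere. In the 5 two-codon boxes alone r was -0.711 in bud and -0.559 in sphere, which rests on 5 points.

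From sphere to bud, dwell times of these codons moved little. Of them 8 were higher and 6 lower in bud, against 18 higher and 29 lower among the 47 other codons. With each library divided by its geometric mean, the other codons had 22 higher and 25 lower, and the members kept 8 and 6. The median log2(bud/sphere) was 0.0081 over the 14 codons, -0.0090 over the other codons and -0.0085 over all 61. With the mean in place of the median the value of the members was -0.0046, so the sign is not settled. The median size of the change was 1.14% for U34 codons, against 1.61% for A34, 1.86% for G34 and 4.09% for C34 codons. A change of at least 5% was found for 1 member upwards and 2 downwards. Over all 61 codons 6.56% were at least 5% higher and 9.84% at least 5% lower, so the members' shares were close to the background. The remaining 11 members changed by less than 3% in either direction.

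The 3 codons past 5% belonged to different boxes. Ala-GCA had 1.04 in bud and 0.941 in sphere, 11.0% higher in bud and the largest increase among all 61 codons. Arg-CGA had 1.21 in bud and 1.31 in sphere, a change of -7.55%. Lys-AAA had 0.933 in bud and 0.989 in sphere, a change of -5.61%, and its rank among the slowest codons was 47 in bud and 34 in sphere. Their G-ending box partners moved the same way. Ala-GCG had 1.24 in bud and 1.16 in sphere, Arg-CGG 1.24 in bud and 1.36 in sphere, and Lys-AAG 0.938 in bud and 0.996 in sphere. The log2 ratio of the pair therefore moved less than its members, with -0.25 in bud and -0.30 in sphere for Ala, -0.038 in bud and -0.052 in sphere for Arg, and -0.0069 in bud and -0.010 in sphere for Lys.

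Proportions of U34 tRNAs moved more than the dwell times, and most were lower in bud. The proportion was lower in bud for 10 anticodons and higher for 4, against 15 lower and 16 higher among the 31 other anticodons. The median log2(bud/sphere) was -0.23, against 0.0089 over the other anticodons. The mean in place of the median was -0.063, and the median as a share of the U34 plus C34 pair was -0.046. The 4 higher ones were UGA of Ser (1.69-fold), UGU of Thr (1.42-fold), UCG of Arg (1.34-fold) and UUU of Lys (1.17-fold). The first 3 belong to four-codon boxes. A proportion is a share of tRNA reads, so it cannot show whether the amount of a tRNA rose or fell. In whole embryos, a change in the cells present and a change in tRNA per cell cannot be told apart. Without Lys-UUU the other 13 anticodons summed to 15.3% in bud and 16.7% in sphere. Among the lower ones, UCU of Arg had 1.49% in bud and 2.27% in sphere, 1.53-fold lower in bud, and UAA of Leu had 0.450% in bud and 0.582% in sphere, 1.29-fold lower. The other 8 had log2 changes between -0.30 and -0.016. A change of at least 1.2-fold was found for 3 members upwards and 4 downwards. By the same rule 22.2% of all 45 anticodons had a higher proportion in bud and 22.2% a lower one, and the members' counts were near these shares.

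Of the 14 codons, 10 had a dwell time that moved opposite to the tRNA proportion, as did 32 of the 47 other codons, which is nearly the same share. Arg-CGA, Thr-ACA and Lys-AAA had a higher tRNA proportion and a lower dwell time in bud. The log2 change in proportion was 0.42 with a log2 dwell change of -0.11 for Arg-CGA, 0.50 with -0.025 for Thr-ACA and 0.23 with -0.083 for Lys-AAA. Ala-GCA had a lower tRNA proportion, with a log2 change of -0.30, and a log2 dwell change of 0.15. The other 6 of the 10 were Leu-CUA, Leu-UUA, Pro-CCA, Val-GUA, Gln-CAA and Glu-GAA. Each had a lower tRNA proportion and a dwell time higher by less than 2% in bud. Ser-UCA was one of the 4 that moved together, with the largest rise in tRNA proportion among the members (0.76 on the log2 scale) and a dwell change of 0.0066.

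Arg-AGA, Ile-AUA and Gly-GGA were the others, with lower values of both. Arg-AGA had the largest fall in tRNA proportion among the members, -0.61 on the log2 scale, and a dwell change of -0.040. Over the 14 codons the linear dwell difference and the log2 tRNA change had r = -0.398 and rho = -0.470, against r = -0.234 and rho = -0.411 over the 47 other codons. In the 8 four-codon boxes r was -0.541. In the 5 two-codon boxes it was -0.496, but 0.937 without Lys-AAA, so no direction can be read from them. Leaving out 1 codon in turn, the r over the 14 codons ran from -0.544 (without Ser-UCA) to -0.242 (without Arg-CGA). Over the 47 other codons it ran from -0.425 (without Arg-CGG) to -0.165 (without Leu-UUG). By class r was -0.197 for C34, -0.266 for G34 and -0.363 for A34 codons.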

How the data were processed

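The authors trimmed footprint reads with Cutadapt, removed rRNA reads with Bowtie, and aligned the rest uniquely to the GRCz11 genome with STAR. Per the submitters' processing notes STAR was version 2.6.1c. From footprints of 30 to 34 nucleotides the authors predicted A sites and estimated dwell times with the generalised linear model of Scikit-ribo, which uses matched RNA-seq. The deposited dwell times are ratios around 1 within a library and cannot show a change common to all codons. The deposited tRNA proportions are fractions of tRNA reads assigned uniquely to an anticodon by mim-tRNAseq in separate libraries, repeated by the authors for codons sharing an anticodon, and printed here as percent. They leave out reads that did not map uniquely, and as shares they cannot show a change in total tRNA. Per the paper, reads counted for an anticodon also where its single transcripts could not be told apart.

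Codons were grouped by the first anticodon base, and boxes by the standard genetic code. T was written as U. An initiator entry without dwell time was left out of codon comparisons. Stages came from sample labels. Ratios, medians, Pearson's r, Spearman's rho and a least-squares line were computed with Python 3.11.15, numpy 2.4.6 and scipy 1.17.1. Median differences and ratios, counts of changed codons, Pearson's r with inverse tRNA proportion and the line were first tested on simulated data. Spearman's rho, the r of the changes, summed proportions, ranks, omissions of codons and distances from the line were not. The simulated dwell times held no noise. U34 codons of all kinds of box were given the same dwell time there, so the grouping into boxes was not checked. A change was counted at 5% for dwell times and at 1.2-fold for tRNA. All 14 members are named, with other codons of their boxes. With 1 ribosome profiling library per stage no p-value was computed. Alternatives were other scalings, summaries, tRNA scales and omitted codons. The anticodon class was picked for description, and the lists were chosen, with earlier results of these data known, although the rule for members uses no measured value. Footprint abundances per transcript were not used here, since the transcript identifiers could not be paired with gene names in the tables used.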

Additional observations from a re-analysis of the deposited data

How the results depend on the processing

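No paired analysis was possible because there was only 1 library for bud and 1 for sphere, so no library could be left out either. A value counted as moved when it changed by more than 1.5 times. Of 55 alternatives, 32 stayed within that factor without a change of sign, 21 moved and 2 changed sign; for those the cause was not tested unless given here. The mean in place of the median changed the sign of the dwell change from 0.0081 to -0.0046, gave a U34 minus rest difference of 0.075 in sphere, a four-codon minus two-codon difference of 0.097 in bud and 0.072 in sphere, and a tRNA change of -0.063. That tRNA change was -0.046 as a share of the U34 plus C34 pair. Dividing each library by its geometric mean gave a dwell change of 0.015. As a deviation from the amino acid mean, the U34 difference was 0.060 in sphere. The A-ending over G-ending ratio was -0.16 in bud and -0.17 in sphere in four-codon boxes alone, against -0.0069 in bud and 0.0088, with the sign changed, in sphere in two-codon boxes. Without the Leu and Arg boxes, the four-codon minus two-codon difference was 0.024 in bud and 0.0070 in sphere.

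The r of dwell time with inverse tRNA proportion ranged from 0.447 to 0.785 in bud and from 0.141 to 0.659 in sphere when each codon was left out in turn. Without the codon of lowest proportion (Leu-CUA in bud, Ser-UCA in sphere) it was 0.447 in bud and 0.659 in sphere. Adding the A34 proportion gave 0.119 in bud and 0.0636 in sphere, a setting that changes 8 of 14 supplies. For the changes, the omissions gave -0.544 to -0.242. At a threshold of 10%, 0 codons were lower in bud, and 1 was higher. Footprint values of the enzymes that modify U34 and of stage markers were planned and not run, since transcripts could not be named. The depth per codon is unknown.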
